A study of Mus musculus with 12 samples.

Results

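Integrins are the cell surface receptors that hold a cell to its extracellular matrix, and laminins are the proteins of the basement membrane that several of them bind. In ventricular RNA, 37 gene symbols of these families were found by name among the 54949 features of the count table: those beginning with Itga, those reading Itgb followed by digits, and those reading Lama, Lamb or Lamc followed by 1 digit. Of these, 35 had at least 10 counts in at least 3 of the 12 libraries and are described here: 26 integrins (18 alpha and 8 beta subunits) and 9 laminins. The 35 genes lay on 13 chromosomes. Both laminin genes outside the rule were nearly silent: Lamc3 had 32 counts over the HF-named libraries and 23 over the con-named ones, with 10 or more in 1 library, and Lama1 had 3 over the HF-named libraries and 1 over the con-named ones. Just inside the rule, Itgae reached 10 counts in 4 libraries, and Itga2 and Itgad in 6.

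All 12 libraries came from ventricles, with the atria removed, of male wild-type C57BL/6N mice. Mice modelling HFpEF, heart failure in which the ventricle relaxes and fills poorly while its ejection fraction is preserved, were set against control animals. The study's text gives 5 bulk samples a group, and the labels hold 6. Model mice received a high-fat diet and L-NAME, an inhibitor of nitric oxide synthase, at 0.5 g/L in drinking water from 8 weeks of age for 5 weeks, and control mice received normal diet and water. For each of the 12 samples the labels are at odds with one another. The 6 libraries named HF-1 to HF-6 carry titles and treatments of normal-diet controls, and the 6 named con-1 to con-6 carry titles and treatments of HFpEF mice. The groups are therefore called HF-named and con-named, and which of them had the diet and L-NAME cannot be told from the labels. Whether the 6 libraries of a group stem from 6 mice is not stated, and the p-values therefore cover the spread between libraries, which may be technical.

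Each integrin is a pair of an alpha and a beta subunit, and the beta 1 subunit, from Itgb1, partners most alpha subunits. In muscle the main laminin receptor of this kind joins it to the alpha 7 subunit, from Itga7, while dystroglycan is a second laminin receptor outside the integrin family. Each laminin is a trimer of an alpha, a beta and a gamma chain. The Lama2 chain is typical of the basement membrane around muscle fibres, Lama4 and Lama5 of that under endothelium, and Lama3 and Lamb3 are chains of the laminin that anchors the skin epithelium.

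Library totals ran from 14443186 to 22048689 counts, so that 3 counts corresponded to 0.142 to 0.217 CPM, the count scaled to a fixed library size. Mitochondrial transcripts took 23.93 to 27.19% of counts in HF-named libraries and 20.95 to 24.01% in con-named libraries. Among HF-named libraries, library 3 was most often at an end of its group, being the lowest for 9 and the highest for 13 of 33 genes. It was not alone: con-named library 1 was the lowest of its group for 11, and con-named library 5 the highest for 10. Levels below are CPM on TMM-scaled library sizes, given as mean ± SD over 6 libraries a group, and each fold change sets HF-named over con-named. Tests are edgeR's quasi-likelihood tests, with p adjusted by Benjamini-Hochberg over 15114 genes and a threshold of 0.05.

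Of the 33 integrin and laminin genes abundant enough for the test, 6 passed it (18.2%), beside 13.3% of all genes tested. In HF-named hearts 5 were higher (15.2%, beside 8.28% of all genes), among them Itgb1, Itga7, Itga9 and Lama2. Only Lamb3 was lower (3.03%, beside 5.05% of all genes). The median log2 fold change was 0.04 over the 33 genes, against -0.01 over all genes tested. It was 0.09 for integrin alpha subunits, 0.05 for integrin beta subunits, 0.12 for laminin alpha chains and 0.01 for laminin beta chains. The groups did not overlap for 5 of the 33 genes (15.2%, beside 5.36% of all genes), among them Lamb3, Itga9, Itgb1 and Itgam. The other 27 tested genes had log2 fold changes between -0.40 and 0.57 and did not pass the threshold. Scaled by library totals in place of TMM, which moved the median of all genes to -0.13, 2 genes were higher, Itga9 among them, and 2 lower (Lamb3 and Itgam). Without HF-named library 3, 8 genes were higher, with Itgav, Itgb6 and Lama5 added.

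**Figure D1:**
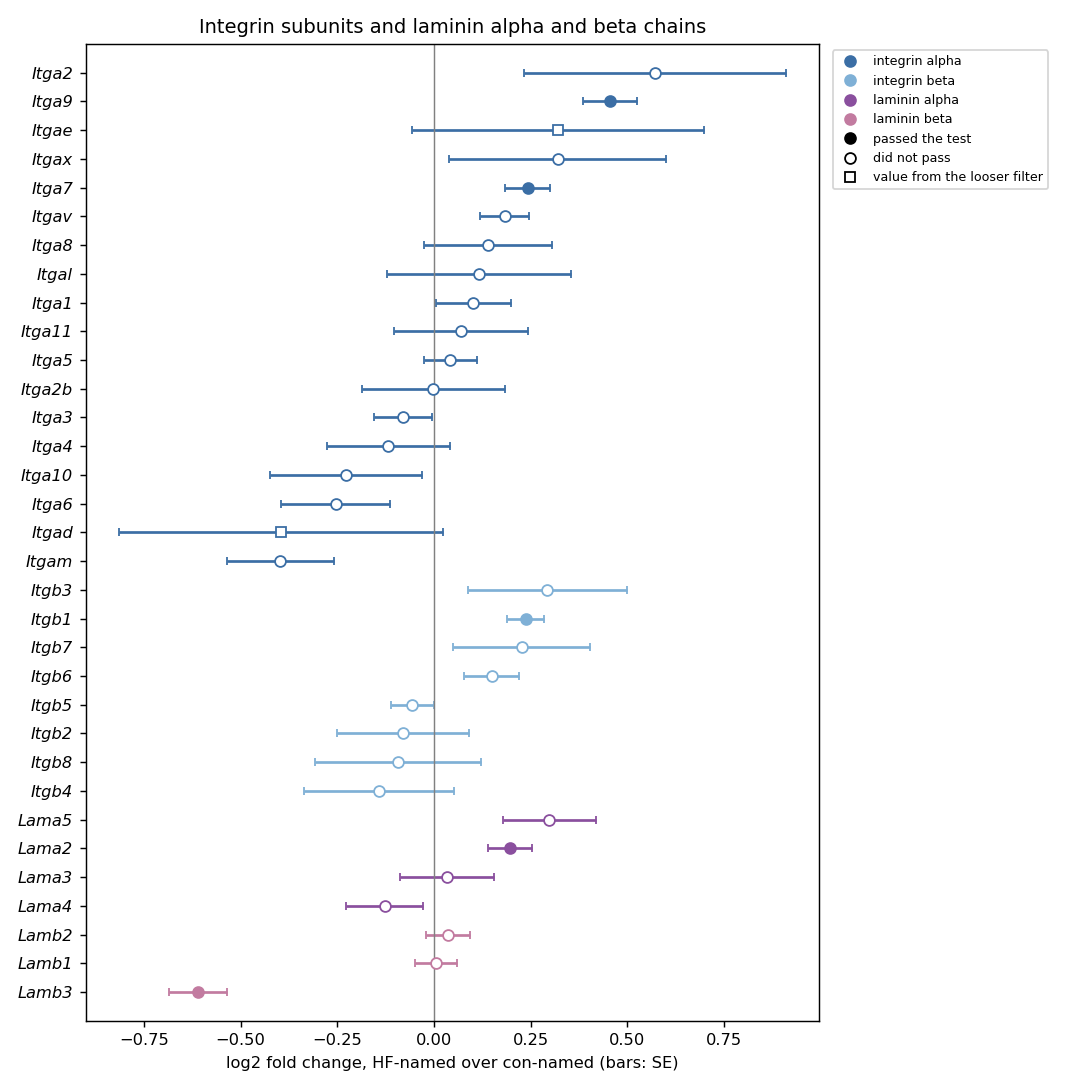
Log2 fold change, HF-named over con-named, of the 26 integrin genes and of the laminin alpha and beta chain genes, sorted within family, with bars of 1 SE; filled points passed edgeR's test, open ones did not, and squares (Itgad, Itgae) come from the looser count filter. The filled points are Itga9, Itga7, Itgb1 and Lama2 to the right of 0 and Lamb3 alone to the left, at -0.61.

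These genes are long, and fold changes in this comparison moved with exon length over all genes. The 33 tested genes had a median exon length of 7.11 kb, from 2.77 to 18.6 kb, against 4.17 kb over the 14904 tested genes with an annotated length. Among all genes under 2 kb, 2.83% were higher in HF-named hearts and 7.63% lower, and among those from 8 to 12 kb 16.5% were higher and 2.61% lower. Of the 7773 genes of at least 4 kb, to which 30 of the 33 belong, 12.2% were higher and 3.33% lower, with a median log2 fold change of 0.03. With an offset for exon length in each library, chosen after seeing the data, Itgb1, Itga7 and Itga9 were still called higher and Lamb3 lower, while Lama2 was not called (log2 fold change 0.11, adjusted p = 0.172).

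**Figure D2:**
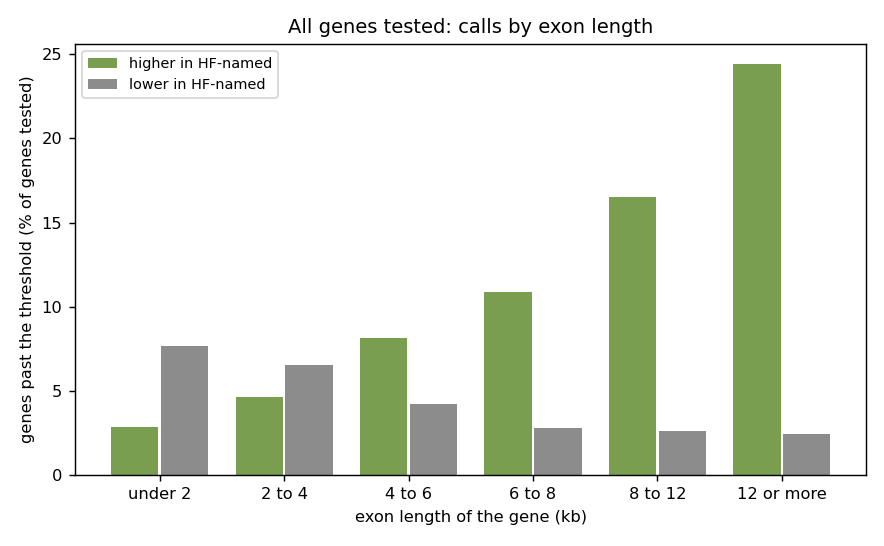
Share past edgeR's threshold among the 14904 tested genes with an annotated length, by exon length of the gene (kb). Green is higher and grey lower in HF-named libraries. The share called higher was 2.83% in the shortest class and 24.4% in the longest, and the share called lower 7.63% and 2.45%.

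**Figure D3:**
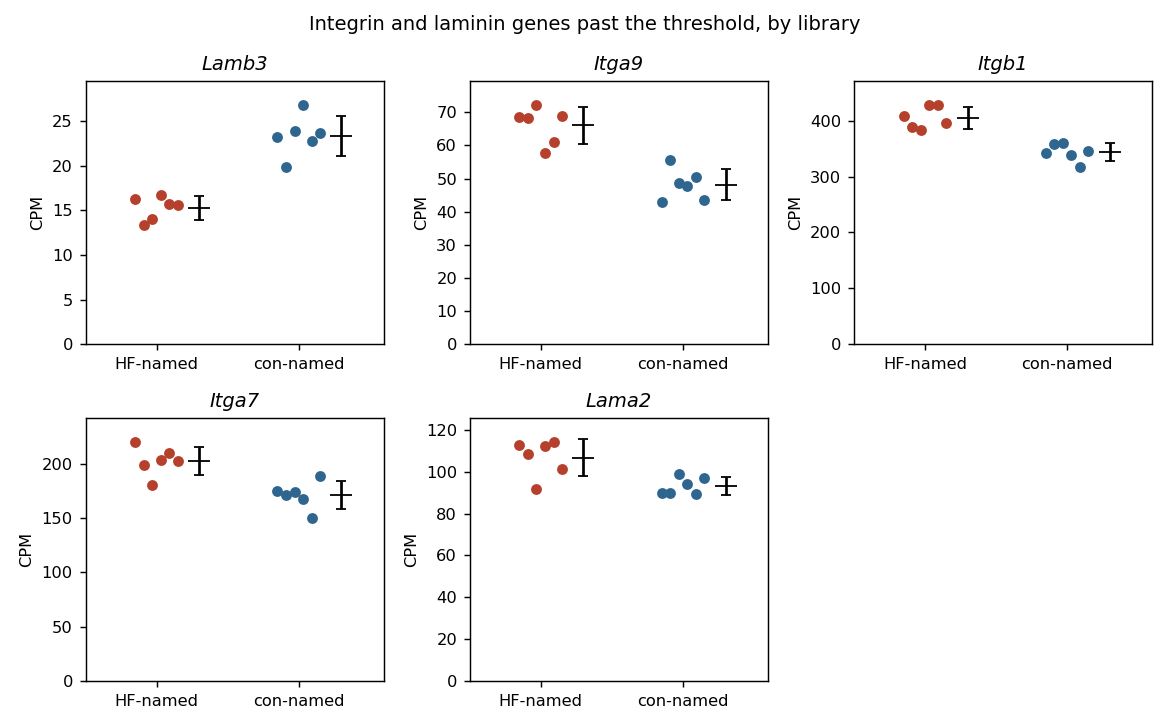
CPM of Lamb3, Itga9, Itgb1, Itga7 and Lama2, which passed edgeR's test, in each of the 6 HF-named (red) and 6 con-named (blue) libraries, with mean and SD beside the points. Lamb3 lies lower in every HF-named library, Itga9 and Itgb1 lie higher in every HF-named library, and 1 HF-named library falls among the con-named ones for Itga7 and for Lama2.

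Among the laminin beta chains, Lamb3 was the one that passed the test. Lamb3 (chromosome 1, 193207699 to 193343878, plus strand, mm10) encodes the beta 3 chain of the epithelial laminin. It had 16.2, 13.3, 14.04, 16.7, 15.7 and 15.6 CPM in HF-named libraries 1 to 6, against 23.2, 19.8, 23.8, 26.8, 22.8 and 23.6 CPM in con-named libraries 1 to 6. Every HF-named library was below every con-named library, and the highest HF-named value was 16.7 against a lowest con-named value of 19.8. The level fell by 34.5% in HF-named hearts (log2 fold change -0.61, SE 0.07, adjusted p = 0.000467).

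Lama3, an alpha chain of the same laminin, had 3.16 ± 0.412 CPM in HF-named hearts and 3.07 ± 0.293 CPM in con-named hearts, and its groups overlapped (log2 fold change 0.03, adjusted p = 0.886). Compared per length, in the authors' FPKM, Lamb3 averaged 2.21 ± 0.182 FPKM in HF-named hearts and 3.66 ± 0.296 FPKM in con-named hearts, and Lama3 0.284 ± 0.0485 FPKM in HF-named hearts and 0.297 ± 0.0311 FPKM in con-named hearts. The ratio of Lamb3 to Lama3 was lower in every HF-named library than in every con-named one, at 7.99 ± 1.46 in HF-named libraries against 12.5 ± 1.86 in con-named libraries. No test was made of shares or ratios, since they follow from the levels already tested.

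Several transcripts lie inside the span of Lamb3, and strand was not marked in the counting as far as the labels state. G0s2, an inhibitor of fat breakdown on the opposite strand, shares no exon base with Lamb3, and it was lower too (log2 fold change -0.67, adjusted p = 0.00905). Gm37691, an unconfirmed transcript on the same strand, was also lower (log2 fold change -0.34, adjusted p = 0.0221), and Hsd11b1, which encodes an enzyme that activates glucocorticoids, had a log2 fold change of -0.18 (adjusted p = 0.25). These 3 neighbours were chosen after their values were seen. None of the 6 called genes shared more than 3.86% of its exon bases with another annotated gene, the largest share being that of Lama2 with an antisense transcript at a mean of 0.1 counts.

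To show the start sites of genes whose groups did not overlap, the 250 bases before the RefSeq start (GRCm38.p6) were read for Lamb3, the gene that was lower, and for Itga9 and Itgb1, which were higher. RefSeq held such windows for 4 of the 6 called genes, which also include Lama2. Capitals mark a GC box, GGGCGG. RefSeq gives Lamb3 a pair of nearby starts, and the window of the upstream one is printed. This Lamb3 window is chr1:193301744-193301993, the Itga9 window chr9:118711442-118711691 and the Itgb1 window chr8:128685404-128685653, all on the plus strand.
Lamb3: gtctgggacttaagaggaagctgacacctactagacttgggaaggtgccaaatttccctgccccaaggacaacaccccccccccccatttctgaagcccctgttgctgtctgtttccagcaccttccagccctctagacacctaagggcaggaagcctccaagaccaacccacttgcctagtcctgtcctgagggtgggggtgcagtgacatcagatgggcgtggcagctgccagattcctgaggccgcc
Itga9: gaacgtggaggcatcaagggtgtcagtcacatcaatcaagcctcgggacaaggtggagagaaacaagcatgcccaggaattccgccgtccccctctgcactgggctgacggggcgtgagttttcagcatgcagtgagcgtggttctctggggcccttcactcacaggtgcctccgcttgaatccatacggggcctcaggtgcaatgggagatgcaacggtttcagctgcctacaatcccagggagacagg
Itgb1: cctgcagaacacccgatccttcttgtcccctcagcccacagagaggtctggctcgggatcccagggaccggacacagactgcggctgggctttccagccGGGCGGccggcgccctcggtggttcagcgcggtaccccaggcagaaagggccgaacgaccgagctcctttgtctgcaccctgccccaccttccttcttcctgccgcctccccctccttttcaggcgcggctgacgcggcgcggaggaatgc
The Lamb3 and Itga9 windows lie inside the gene spans of the GENCODE annotation, which begin farther upstream. These spans begin at 193207699 for Lamb3 and at 118606690 for Itga9, and the bases before those starts were not read. The letters of the Lamb3 and Itga9 windows therefore describe internal starts and need not describe the promoter of the whole gene. Both strands of these windows were searched for 5 motifs. Itgb1 held the only match, a GC box 151 to 146 bases before its start, a motif found in 32.7% of the 32851 windows of the table. The letters TATAAA, which spell the core of a TATA box, occur in 12.4% of all windows. The letters CCAAT of the box of that name occur in 33.8%. The palindromic E-box searched for, CACGTG, occurs in 6.02% of all windows. The binding motif of the AP-1 factors, here TGACTCA, occurs in 4.46%. Guanine and cytosine made up 58.8% of the printed Lamb3 window, 61.2% of that of its other start, 58.4% of the Itga9 window and 68.0% of the Itgb1 window, against a median of 52.4%. A match describes the letters of these windows and not a bound site.

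The muscle laminin chain Lama2 (chromosome 10, 26980036 to 27619758, minus strand) had a smaller difference. It had 113, 109, 91.5, 112, 114 and 101 CPM in HF-named libraries 1 to 6, against 89.6, 89.9, 98.8, 94.1, 89.5 and 97.2 CPM in con-named libraries 1 to 6. In 5 of 6 HF-named libraries the level was above every con-named library, and HF-named library 3 lay among the con-named ones. The level was 14.6% higher in HF-named hearts (log2 fold change 0.20, SE 0.06, adjusted p = 0.0290). This call was lost in 12 of 21 alternatives, with an adjusted p of 0.252 under library totals.

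Lama5, a chain of vessel basement membranes, had 173 CPM in HF-named library 3 and 237 to 340 CPM in the other 5 HF-named libraries, against 170 to 234 CPM in con-named libraries. It averaged 254 ± 53.6 CPM in HF-named hearts and 206 ± 26.6 CPM in con-named hearts without passing the test (log2 fold change 0.30, SE 0.12, adjusted p = 0.112). Without HF-named library 3 it passed (0.39, adjusted p = 0.0137). Lama4, also of vessel basement membranes, averaged 73.1 ± 7.53 CPM in HF-named hearts and 79.8 ± 13.5 CPM in con-named hearts (log2 fold change -0.13, adjusted p = 0.432).

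The most abundant beta chains and Lamc1 had small differences, none past the threshold. Lamb2, the beta chain of synapses and of mature muscle and kidney basement membranes, averaged 466 ± 33.4 CPM in HF-named hearts and 455 ± 23.8 CPM in con-named hearts, with a log2 fold change of 0.04 (adjusted p = 0.714). Lamb1, the more widespread beta chain, averaged 91.9 ± 3.77 CPM in HF-named hearts and 91.5 ± 7.52 CPM in con-named hearts (log2 fold change 0.01, adjusted p = 0.964). Lamc1, the gamma chain of most laminins, averaged 149 ± 7.26 CPM in HF-named hearts and 152 ± 12.5 CPM in con-named hearts (log2 fold change -0.03, adjusted p = 0.7998).

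Per length, the alpha and the beta chains each had 1 dominant member in both groups. Lama5 made up 62.8 ± 5.33% of the summed FPKM of the alpha chains in HF-named hearts and 58.9 ± 3.66% in con-named hearts, followed by Lama2 and Lama4, whose shares lay within their spread of each other. Lama2 held 18.7 ± 1.84% in HF-named hearts and 18.7 ± 1.6% in con-named hearts, Lama4 17.6 ± 3.85% in HF-named hearts and 21.5 ± 3.39% in con-named hearts, and Lama3 0.854 ± 0.209% in HF-named hearts and 0.940 ± 0.148% in con-named hearts. Lamb2 made up 86.8 ± 1.11% of the beta chains in HF-named hearts and 85.4 ± 0.806% in con-named hearts. The Lamb3 share was 2.62 ± 0.206% in HF-named hearts against 4.05 ± 0.484% in con-named hearts and did not overlap between groups. Shares within a class sum to the whole, so that a change in 1 chain moves the others. The length used for each gene joins all its annotated exons over all transcripts. The length of the expressed transcripts was not measured, so ranks between genes depend on this choice.

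**Figure D4:**
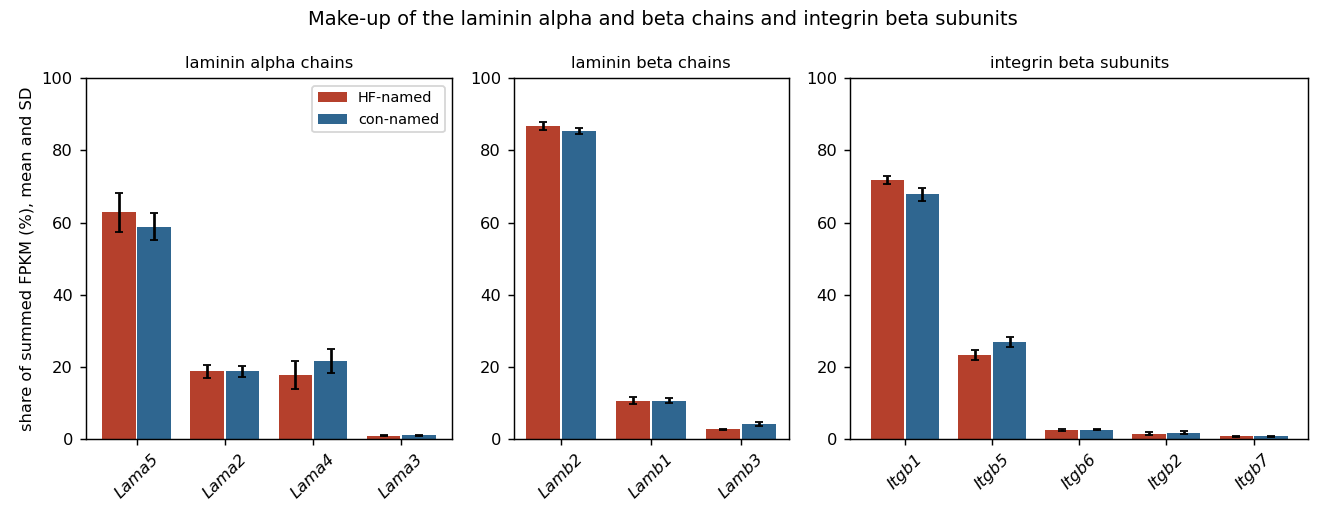
Mean share, with SD, of each chain in the summed FPKM of its class, HF-named (red) left of con-named (blue), for laminin alpha and beta chains and for 5 integrin beta subunits. Lama5, Lamb2 and Itgb1 lead their classes in both groups, and Itgb1 takes 71.7% in HF-named and 67.8% in con-named libraries.

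Turning to the integrins, both subunits of the muscle laminin receptor were higher in HF-named hearts, as was the alpha 9 subunit. Itgb1 (chromosome 8, 128685654 to 128733200, plus strand) had 409, 389, 383, 428, 428 and 395 CPM in HF-named libraries 1 to 6, against 343, 359, 360, 338, 318 and 347 CPM in con-named libraries 1 to 6. The groups did not overlap. The level was 17.9% higher in HF-named hearts (log2 fold change 0.24, SE 0.05, adjusted p = 0.00577). Under library totals it was 0.12 with an adjusted p of 0.0577.

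Itga7 (chromosome 10, 128933818 to 128958282, plus strand), the alpha subunit through which muscle cells bind laminin, had 220, 199, 180, 204, 209.6 and 203 CPM in HF-named libraries 1 to 6, against 175, 171, 174, 168, 150 and 189 CPM in con-named libraries 1 to 6. In 5 of 6 HF-named libraries it was above every con-named library, and HF-named library 3 was below con-named library 6. The level was 18.3% higher in HF-named hearts (log2 fold change 0.24, SE 0.06, adjusted p = 0.0132), and under library totals it was 0.13 with an adjusted p of 0.0844. The ratio of Itga7 to Itgb1 in FPKM was 0.252 ± 0.0132 in HF-named libraries and 0.251 ± 0.0136 in con-named libraries, and the groups overlapped.

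Itga9 (chromosome 9, 118606690 to 118901003, plus strand) encodes the subunit that binds tenascin-C, osteopontin and VCAM1 and is needed for lymphatic valves in mice. It had 68.5, 68.3, 72.2, 57.6, 61.1 and 68.8 CPM in HF-named libraries 1 to 6, against 42.8, 55.7, 48.8, 47.8, 50.3 and 43.5 CPM in con-named libraries 1 to 6. All HF-named libraries were above all con-named ones, with 57.6 CPM the lowest HF-named value and 55.7 CPM the highest con-named value. The level was 37.1% higher in HF-named hearts (log2 fold change 0.46, SE 0.07, adjusted p = 0.00109). Lymphatic endothelial markers summed to 93.6 to 118 CPM in HF-named libraries and 87.8 to 114 CPM in con-named libraries, with 0 of 4 tested called and Ccl21a at 0. Prox1 made up most of these sums, at 80.4 CPM in HF-named hearts and 67.0 CPM in con-named hearts. Its log2 fold change was 0.27 (adjusted p = 0.127). Lyve1 (-0.36, adjusted p = 0.061), Flt4 (-0.25, adjusted p = 0.0932) and Pdpn (-0.21, adjusted p = 0.507) went the other way.

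The other laminin-binding alpha subunits did not pass the test. Itga6, common in endothelium, averaged 57.9 ± 13.3 CPM in HF-named hearts and 68.8 ± 13.4 CPM in con-named hearts (log2 fold change -0.25, SE 0.14, adjusted p = 0.252). It ran from 43.3 to 78.8 CPM in HF-named libraries, against 50.98 to 89.5 CPM in con-named libraries. Itga3, which binds epithelial laminins, averaged 14.3 ± 0.983 CPM in HF-named hearts and 15.1 ± 1.56 CPM in con-named hearts (log2 fold change -0.08, adjusted p = 0.525). Among these 3 laminin-binding subunits, Itga7 made up 73.8 ± 4.14% of the summed FPKM in HF-named hearts and 67.4 ± 4.43% in con-named hearts, and Itga6 18.8 ± 4.08% in HF-named hearts and 24.2 ± 3.98% in con-named hearts.

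Collagen-binding alpha subunits did not pass the test either. Itga1 averaged 79.0 ± 14.7 CPM in HF-named hearts and 73.5 ± 6.21 CPM in con-named hearts (log2 fold change 0.10, adjusted p = 0.534). Itga2 was scarce, at 0.641 ± 0.179 CPM in HF-named hearts and 0.413 ± 0.210 CPM in con-named hearts, and its log2 fold change of 0.57 had an SE of 0.34 (adjusted p = 0.283). Itga10 and Itga11 averaged 1.95 and 2.30 CPM in HF-named hearts and 2.29 and 2.19 CPM in con-named hearts, with log2 fold changes of -0.23 and 0.07. Of the exon bases of Itga10, 33.5% are also annotated to Gm42957 on the same strand, which had a mean of 0.4 counts. How reads in such bases were counted is not known here, so the Itga10 level may be too low.

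Of Itgav, Itga5, Itga8 and Itga4, alpha subunits that bind fibronectin and related ligands, none passed the test, and Itgav had the smallest p. Itgav, which pairs with several beta subunits and binds latent TGF-beta, averaged 30.3 ± 2.84 CPM in HF-named hearts and 26.6 ± 1.38 CPM in con-named hearts, with 3 of 6 HF-named libraries above every con-named one (log2 fold change 0.18, SE 0.06, adjusted p = 0.0677). It passed without HF-named library 3 (adjusted p = 0.0296) or library 6 (adjusted p = 0.0486). Itga5, the fibronectin receptor subunit, averaged 62.9 ± 5.63 CPM in HF-named hearts and 60.9 ± 5.47 CPM in con-named hearts (log2 fold change 0.04, adjusted p = 0.727). Itga8, found on smooth muscle and related cells, averaged 5.09 ± 1.13 CPM in HF-named hearts and 4.56 ± 0.962 CPM in con-named hearts (0.14, adjusted p = 0.6252), and Itga4, a VCAM1 and fibronectin receptor subunit, 2.99 ± 0.449 CPM in HF-named hearts and 3.22 ± 0.756 CPM in con-named hearts (-0.12, adjusted p = 0.672).

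Among the 8 beta subunits, Itgb1, which is also a partner of Itgav, was the only one called. Itgb5, a vitronectin receptor subunit, averaged 114 ± 8.08 CPM in HF-named hearts and 118 ± 7.70 CPM in con-named hearts (log2 fold change -0.06, adjusted p = 0.556). Itgb6, which activates latent TGF-beta, averaged 24.0 ± 2.47 CPM in HF-named hearts and 21.7 ± 1.36 CPM in con-named hearts (0.15, adjusted p = 0.178) and passed without HF-named library 3 (0.20, adjusted p = 0.0274). Itgb3 averaged 2.76 ± 0.685 CPM in HF-named hearts and 2.23 ± 0.644 CPM in con-named hearts (0.29, adjusted p = 0.375), and Itgb8 1.21 ± 0.358 CPM in HF-named hearts and 1.28 ± 0.225 CPM in con-named hearts (-0.09, adjusted p = 0.816). Itgb4, the hemidesmosome partner of Itga6, averaged 2.07 ± 0.328 CPM in HF-named hearts and 2.29 ± 0.704 CPM in con-named hearts (-0.14, adjusted p = 0.675).

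Leukocyte and platelet integrins were scarce in this tissue. Itgam, which with Itgb2 forms the complement receptor of myeloid cells, had 1.99, 1.88, 2.06, 2.001, 1.53 and 1.71 CPM in HF-named libraries 1 to 6, against 2.09, 2.37, 3.003, 2.71, 2.16 and 2.41 CPM in con-named libraries 1 to 6. Every HF-named library was below every con-named library by a small margin, but this difference missed the threshold (log2 fold change -0.40, SE 0.14, adjusted p = 0.0677). Under library totals it passed, at -0.51 (adjusted p = 0.0237). Most of its exon bases, 68.7%, are also annotated to the read-through gene Gm49368 on the same strand, which had a mean of 0.5 counts. How reads in such shared bases were counted is not known here, so the Itgam level may be too low.

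Itgb2 itself averaged 5.90 ± 1.21 CPM in HF-named hearts and 6.19 ± 1.63 CPM in con-named hearts (log2 fold change -0.08, adjusted p = 0.7998). Of its other partners, Itgal had 3.33 ± 1.09 CPM in HF-named hearts and 3.06 ± 1.07 CPM in con-named hearts (0.12, adjusted p = 0.790). Itgax had 2.44 ± 0.944 CPM in HF-named hearts and 1.94 ± 0.809 CPM in con-named hearts (0.32, adjusted p = 0.489). Itgad, a further Itgb2 partner, and Itgae, the partner of Itgb7 that binds E-cadherin, were too scarce for the test, and under the looser filter of 10 counts in 3 libraries they had log2 fold changes of -0.40 (adjusted p = 0.590) and 0.32 (adjusted p = 0.634). Itgb7 averaged 2.45 ± 0.506 CPM in HF-named hearts and 2.09 ± 0.492 CPM in con-named hearts (0.23, adjusted p = 0.434). Itga2b, the platelet fibrinogen receptor subunit, averaged 1.93 ± 0.478 CPM in HF-named hearts and 1.90 ± 0.439 CPM in con-named hearts (log2 fold change -0.0011, adjusted p = 0.998).

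Compared per length, Itgb1 was the most abundant integrin, at 95.2 ± 3.29 FPKM in HF-named hearts and 87.5 ± 4.38 FPKM in con-named hearts, followed by Itgb5 at 30.8 ± 2.66 FPKM in HF-named hearts and 34.6 ± 2.35 FPKM in con-named hearts and Itga7 at 24.0 ± 1.56 FPKM in HF-named hearts and 21.96 ± 1.24 FPKM in con-named hearts. Itgb1 held 71.7 ± 1.16% of the summed FPKM of the beta subunits in HF-named hearts and 67.8 ± 1.73% in con-named hearts, and Itgb5 23.2 ± 1.32% in HF-named hearts and 26.8 ± 1.33% in con-named hearts. Neither share overlapped between the groups, and the margin for Itgb1 was narrow, with a lowest HF-named share of 70.4% and a highest con-named share of 70.3%. Among alpha subunits, Itga7 held 37.9 ± 2.90% in HF-named hearts and 35.3 ± 3.52% in con-named hearts, Itga5 19.3% in HF-named hearts and 20.5% in con-named hearts, and Itga9 13.0 ± 0.860% in HF-named hearts and 10.4 ± 0.563% in con-named hearts, the last of which did not overlap.

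The deposited table of the authors' own comparison, of HF over control, listed the same 6 genes as edgeR with an adjusted p under 0.05. In the authors' deposited table the log2 fold changes were -0.61 for Lamb3 (adjusted p = 7.11e-10), 0.46 for Itga9 (8.15e-07), 0.24 for Itgb1 (5.41e-05), 0.24 for Itga7 (0.00377) and 0.20 for Lama2 (0.0222). The sign was the same for 34 of the 35 genes in the authors' deposited table and in the edgeR fit, with Itga2b, near 0 in both, the exception. Both comparisons come from the libraries of the same study, so their overlap is not independent support.

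Genes that work beside these receptors were read from lists chosen with earlier results of these data known. Among 36 tested proteins linked to integrin adhesions, 6 were higher and 2 lower in HF-named hearts, beside 8.28% higher and 5.05% lower of all genes tested. The median log2 fold change of this list was -0.04 against -0.01 over all genes. Lims1, the PINCH adaptor that joins integrin-linked kinase to its partners, averaged 164 ± 7.05 CPM in HF-named hearts and 132 ± 5.91 CPM in con-named hearts (log2 fold change 0.31, adjusted p = 0.000937). Kank2, a talin-binding protein, was higher (0.25, adjusted p = 0.0115), and the tetraspanin Cd81 was lower (-0.17, adjusted p = 0.0115). The other 4 that rose, named after their values were seen, were Parvb, Cd151, Vcl (vinculin) and Tln2 (talin 2), at 0.19 to 0.31, and the other that fell was the tetraspanin Cd9 (-0.39, adjusted p = 0.0175). Under library totals the same list held 1 higher and 8 lower.

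Laminin receptors outside the integrin family had 3 higher and 1 lower of 14 tested, beside 8.28% higher and 5.05% lower of all genes tested. Their median log2 fold change was 0.07. Dag1, dystroglycan itself, averaged 378 ± 42.2 CPM in HF-named hearts and 299 ± 24.0 CPM in con-named hearts (log2 fold change 0.34, adjusted p = 0.00843). Sdc4, a heparan sulfate proteoglycan of focal adhesions, was lower (-0.48, adjusted p = 0.0184; named after its value was seen).

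Among other basement membrane genes, integrin ligands and latent TGF-beta genes, most of the called ones were lower in HF-named hearts, and over all genes tested 13.3% were called, 5.05% as lower. Of 18 other basement membrane genes 0 were higher and 2 lower, with a median of -0.07: Smoc1 (-1.21, adjusted p = 0.00476) and Smoc2 (-0.26, adjusted p = 0.0341), both calcium-binding matrix proteins. Of 22 tested ligands other than laminins, 1 was higher and 3 lower, with a median of -0.11. The platelet adhesion protein Vwf averaged 45.3 ± 13.1 CPM in HF-named hearts and 93.5 ± 14.3 CPM in con-named hearts (-1.04, adjusted p = 0.000792). Vcam1, a ligand of the alpha 4 and alpha 9 subunits, was lower (-0.38, adjusted p = 0.00919), Cyr61, a matricellular ligand, was higher (0.56, adjusted p = 0.0101), and Icam1, the ligand of Itgb2 receptors, was lower (-0.36, adjusted p = 0.0493; named after its value was seen). Of 9 latent TGF-beta genes 0 were higher and 1 lower, with a median of -0.06: Lrrc32, which anchors latent TGF-beta on the cell surface (-0.37, adjusted p = 0.0441).

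Markers of several cell types moved with the groups, and fewer cells of a type and less RNA per cell cannot be told apart in bulk tissue. The counts of calls below stand beside 8.28% higher and 5.05% lower of all genes tested, and the lists are short. Cardiomyocyte markers had 2 higher and 4 lower of 10, with Ttn (0.40) and Ryr2 (0.46) higher and Tnnt2 (-0.23), Tnni3 (-0.25), Myl2 (-0.24) and Myl3 (-0.25), named after their values were seen, lower. They summed to 71146 to 78863 CPM in HF-named libraries and 68602 to 77488 CPM in con-named libraries. Endothelial markers had 0 higher and 2 lower of 10 (Emcn -0.34, Kdr -0.46), with sums of 1064 to 1637 CPM in HF-named and 1328 to 1727 CPM in con-named libraries. Fibroblast markers had 0 higher and 4 lower of 10, among them Dcn (-0.35) and Dpt (-0.36). Their sums were 1154 to 1414 CPM in HF-named and 1425 to 1811 CPM in con-named libraries and did not overlap. Gsn, named after its value was seen, was the largest part, at 662 CPM in HF-named and 808 CPM in con-named hearts. Only Postn had a positive log2 fold change (0.24, adjusted p = 0.234). Macrophage markers had 0 higher and 3 lower of 10, among them Lyz2 (-0.39) and Csf1r (-0.35), with sums of 213 to 282 CPM in HF-named and 253 to 345 CPM in con-named libraries. Mural cell markers had 0 called of 8. Their sums were 1474 to 1674 CPM in HF-named and 1287 to 1463 CPM in con-named libraries and did not overlap. Rgs5, named after its value was seen, was the largest part, at 718 CPM in HF-named and 625 CPM in con-named hearts (0.20, adjusted p = 0.0504). Pdgfrb (-0.03) and Kcnj8 (-0.05) went the other way. Of the platelet markers 1 of 3 tested was lower (Pf4, -0.40) with Gp1bb at 0, and 1 of 5 erythroid markers was higher (Hba-a2, 0.58). Lists for T cells, B cells, neutrophils, Schwann cells, mesothelium and atrium had 0 called, and the atrial markers summed to 23.1 to 195 CPM in HF-named libraries and 63.7 to 127 CPM in con-named libraries. The part of these shifts in the integrin and laminin values was not tested. Calls over all tested genes with an annotated length also moved with exon length. Under 2 kb, 2.83% of genes were higher and 7.63% lower, and at 12 kb or more 24.4% were higher and 2.45% lower. The part of exon length in the marker lists was not tested.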

How the data were processed

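Per the labels' protocols, poly-T-selected RNA of 12 ventricular libraries was sequenced. Raw counts per gene, with no normalization, and FPKM were deposited by the authors in 1 table. A second deposited table, of the authors' own comparison, gives log2 fold changes and p-values, raw and adjusted. The submitters' processing notes name cutadapt 1.15, HISAT2 2.0.5, HTSeq 0.9.1 and the build mm10, with no order. No annotation release or strand setting of the counting is given there. The authors' FPKM of all 35 genes match, within 1%, counts per total and per exon length of GENCODE M21. That annotation, on GRCm38 (mm10), gave coordinates and lengths. Exon length is that of all annotated exons of a gene joined over its transcripts, which can exceed the length of the expressed transcript.

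Groups follow the library names, since titles and treatments give the opposite condition. Counts were filtered by filterByExpr, scaled by TMM and tested on the whole table by edgeR 4.0.16 (limma 3.58.1, R 4.3.3), two-sided, without covariates. SE is the absolute log2 fold change over the square root of F. Steps were tested on simulated data. The rule names every gene found, the called ones with all libraries, and from each partner list the 3 called genes of smallest p and from each marker list 2, and a few of these genes, counted in the totals, are not reported here. The genes and lists were chosen with earlier results of these data known.

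Alternatives were RLE or library totals, 3 other filters, a replicate block, each library left out, limma-voom and DESeq2 1.42.0, and, added after seeing the data, an offset for exon length (a spline with 5 degrees of freedom). FPKM, scaled by library totals, served for levels between genes and for shares and ratios of chains, given by group as descriptions without a test. Intervals were not computed, and 3 counts mark the floor of each library.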

Additional observations from a re-analysis of the deposited data

Results flagged for a closer look

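Itgb6 in HF-named library 3 stood apart from the rest of its group, at 19.4 CPM against 23.8 to 26.2 CPM in the other 5 HF-named libraries. Itga2b in con-named library 5 stood apart as well, at 2.74 CPM against 1.48 to 1.92 CPM in the other 5 con-named libraries. In both, the gap to the nearest library took a larger share of the group's range than Dixon's critical value for 6 samples. There were 70 groups of 6 examined over 35 genes, and chance alone gives such a gap in about 1 of 20 groups. HF-named library 3 was the lowest of its group in 9 and the highest in 13 of the 33 tested genes. Con-named library 1 was the lowest of its group in 11, and con-named library 5 the highest in 10.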

How the results depend on the processing

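With 5 genes higher and 1 lower, library totals in place of TMM gave 2 higher and 2 lower. Leaving out each library gave 4 to 8 higher, with 8 without HF-named library 3, and 1 lower throughout. Lamb3 (-0.73 to -0.57) and Itga9 (0.34 to 0.49) were called under all 21 alternatives. Itgb1 and Itga7 lost their call under library totals and kept it under the other 20. Lama2 was not called under 12, with 4 genes higher under the replicate block (Lama2 0.19, adjusted p = 0.0945), without a filter and with the length offset. The replicate numbers share no stated source: same-numbered libraries correlated at -0.16 to 0.09, and 1 of 6 HF-named libraries correlated best with its own number.

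Of 698 values of single genes, 646 kept their direction and side of the threshold and 33 changed sign, all of genes not called. Under library totals Itga1 was -0.0090, Itga11 -0.043, Itga5 -0.074, Itgal -0.0010, Lama3 -0.079, Lamb1 -0.11 and Lamb2 -0.079. Itga2b was 0.0024 without a filter, 0.0022 with 10 counts in 3 libraries, 0.011 under the replicate block and 0.0000 by DESeq2. Lamb1 was -0.0027 without a filter, -0.0057 with the filter of 1 CPM and -0.043 with the length offset, where Lama3 was -0.021. Leaving out each library, values ran from -0.021 to 0.16 for Itga11, -0.082 to 0.12 for Itga2b, -0.025 to 0.29 for Itgal, -0.16 to 0.015 for Itgb2, -0.22 to 0.028 for Itgb8, -0.024 to 0.070 for Lama3, -0.028 to 0.038 for Lamb1 and -0.055 to 0.0080 for Lamc1. The cause was not tested. Chain shares from counts per kb were the same as those from FPKM for all 82. Both use the same lengths and the library total cancels in a share, so this comparison is no check. Genes near 1 CPM rest on few counts, such as 2 to 13 for Itga2, and their fold changes have a wide SE.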
